A study of Homo sapiens with 6 samples.

Results

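The hemidesmosome and laminin-332 adhesion system was described across 3 human prostate cancer lines. It was defined as 9 genes: the integrin subunits ITGB4, ITGA6 and ITGA3, the laminin chains LAMA3 and LAMB3, the transmembrane collagen COL17A1, the plakins PLEC and DST, and the tetraspanin CD151. Every probe set that the platform annotation gives exactly 1 gene symbol, equal to one of these, was taken. This found 22 of the 54675 probe sets on the array, and they belong to 7 of the 9 genes, out of 19775 genes with such a probe set. LAMA3 and COL17A1 had no probe set under this rule and were not analysed here. Of the 22 probe sets, 16 passed the filter on low signals and were tested, with at least 1 for each of the 7 genes.

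Total RNA was measured on 6 short-oligonucleotide arrays, 2 for each line. TEM4-18 is a line isolated from PC-3 cells that had migrated through cultured endothelium of human lung microvessels. TEM2-5 was isolated in the same way when the experiment was repeated. PC-3, the parental line, comes from a bone metastasis of a prostate cancer. All lines grew in the same serum-containing medium without further treatment. Each TEM line is 1 isolate, so differences between lines rest on 1 isolate against 1 parental line. Whether both arrays of a line stem from separate cultures is not stated, so p-values measure only the spread between arrays, which may be technical. The labels state a check of RNA quality for TEM4-18 replicate 1 and both PC-3 arrays and do not state one for the other 3 arrays.

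Hemidesmosomes anchor the basal surface of epithelial cells to the basement membrane. Integrin alpha6beta4 (ITGA6 with ITGB4) binds laminin-332 outside the cell. Inside it, the long tail of beta4 binds plectin (PLEC), and plectin and the epithelial form of dystonin (DST) attach to keratin filaments. Integrin alpha3beta1 (ITGA3 with ITGB1) is a second receptor for laminin-332, and CD151 associates with both receptors. In the normal prostate, hemidesmosomes belong to the basal cells, and they are commonly lost in invasive prostate cancer.

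RefSeq promoter sequences (build GRCh38.p14) are reported for 3 of the 7 measured genes: LAMB3, ITGA6 and DST. Promoters of the other measured genes, ITGB4 and PLEC among them, are not reported here. Those of LAMB3, whose signal fell, and ITGA6, whose main probe set did not pass the test, are shown as the 250 bases before the most upstream listed start. The window of LAMB3 is chr1:209652426-209652675 on the minus strand and that of ITGA6 is chr2:172427086-172427335 on the plus strand. Capitals mark the E-box CAGGTG, or CACCTG where it lies on the other strand, the motif that ZEB1, a repressor of epithelial genes, is known to bind.
LAMB3: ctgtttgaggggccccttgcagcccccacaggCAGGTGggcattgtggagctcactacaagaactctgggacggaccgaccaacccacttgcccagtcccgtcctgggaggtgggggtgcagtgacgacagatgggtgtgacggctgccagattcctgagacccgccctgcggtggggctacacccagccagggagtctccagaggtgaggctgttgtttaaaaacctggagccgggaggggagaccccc
ITGA6: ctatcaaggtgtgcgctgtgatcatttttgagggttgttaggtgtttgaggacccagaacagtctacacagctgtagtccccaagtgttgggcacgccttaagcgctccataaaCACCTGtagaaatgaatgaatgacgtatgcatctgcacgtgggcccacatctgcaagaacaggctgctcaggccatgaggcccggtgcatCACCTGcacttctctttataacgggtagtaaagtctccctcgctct
The LAMB3 window holds 1 such E-box, which begins 218 bases before the start. That of ITGA6 holds 2, which begin 136 and 46 bases before the start. Over all 34788 different promoter windows of this length, 17.5% hold the motif. The AP-1 motif TGACTCA, or TGAGTCA on the other strand, is in 4.21% of windows and in neither of these. It lies 67 bases before the third listed LAMB3 start. The other window of ITGA6, the second of LAMB3 and the 3 of DST hold neither motif. A match of letters does not show a binding site.

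The arrays were comparable in overall signal. The deposited signals had a trimmed mean of 1500.17 to 1500.18 and a median of 267 to 317 on the 6 arrays, and log2 signals of the 2 arrays of a line correlated at 0.976 to 0.980 across tested probe sets, which are not independent replicates. The 3' to 5' signal ratio of GAPDH, a sign of RNA integrity, was 0.967 to 0.968 in TEM4-18, 0.923 to 0.953 in TEM2-5 and 0.939 to 0.986 in PC-3. Epithelial markers were lower in the TEM lines: all 8 passed the test as lower in TEM4-18 and 7 of 8 in TEM2-5, and their summed signal was 65097 to 72578 in TEM4-18, 81418 to 89025 in TEM2-5 and 187855 to 195458 in PC-3. Of the 8, CDH1, E-cadherin, was at 25.7 and 57.8 in TEM4-18, below the filter level, against 2520 and 2479 in TEM2-5 and 14396 and 15147 in PC-3. Of 12 endothelial markers, 5 passed the filter, and the summed signal of all 12 was 4153 to 5381 in TEM4-18, 4432 to 4628 in TEM2-5 and 2961 to 3184 in PC-3. Of these 5, 3 rose and 0 fell in TEM4-18, and 2 rose and 0 fell in TEM2-5. KDR, a VEGF receptor, averaged 1423 in TEM4-18, 1251 in TEM2-5 and 226 in PC-3, with log2 fold changes of 2.40 in TEM4-18 (limma adjusted p = 0.000342) and 2.29 in TEM2-5 (limma adjusted p = 0.000931). ROBO4 rose by 0.73 in TEM4-18 and by 0.78 in TEM2-5, and ESAM rose by 1.40 in TEM4-18 and was at 0.71 in TEM2-5 (limma adjusted p = 0.0524). PECAM1 averaged 687 in TEM4-18, 946 in TEM2-5 and 905 in PC-3, and neither it nor EGFL7 passed the test. The other 7, CDH5, VWF, TEK, TIE1, CLDN5, EMCN and ERG, lay below the filter. CDH5, VE-cadherin, was at 23.9 to 53.3 in TEM4-18, 93.7 to 201 in TEM2-5 and 24.6 to 145 in PC-3. The summed signal of 8 fibroblast markers was 19738 to 23204 in TEM4-18, 19502 to 23599 in TEM2-5 and 8302 to 10153 in PC-3, most of it from COL1A1, a collagen chain, which averaged 20625 in TEM4-18, 19986 in TEM2-5 and 7584 in PC-3. Of 5 fibroblast markers tested, 1 (COL1A1) rose and 1 (LUM, at -3.18) fell in TEM4-18, with a median log2 fold change of -0.27, and 1 (COL1A1) rose and 0 fell in TEM2-5, with a median of 0.64. LUM signals in TEM4-18 lay below the filter level. COL1A2, another collagen chain, lay below the filter, as did PDGFRB and FAP. The summed signal of 4 leukocyte markers was 532 to 755, 377 to 550.4 and 522 to 533 in TEM4-18, TEM2-5 and PC-3. The part of these marker signals in the results on the adhesion genes was not tested. In such bulk RNA, fewer cells with a gene on and less of its RNA per cell cannot be told apart.

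Within the system, the beta4 integrin subunit and the beta3 laminin chain were lower in both TEM lines, while no probe set of ITGA3, DST or CD151 passed the test in any comparison. At the brightest probe set of each gene, ITGB4 had the largest difference of the 7 measured genes in each TEM line against PC-3, and LAMB3 the second largest. PLEC was lower in TEM2-5, and 1 of the 2 ITGA6 probe sets was higher there. Fold changes are on the log2(signal + 51.8) scale, where 51.8 is the 20th percentile of all signals, and understate the change of low signals. All tests are limma fits across 32518 probe sets with Benjamini-Hochberg adjustment and a threshold of 0.05.

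**Figure D1:**
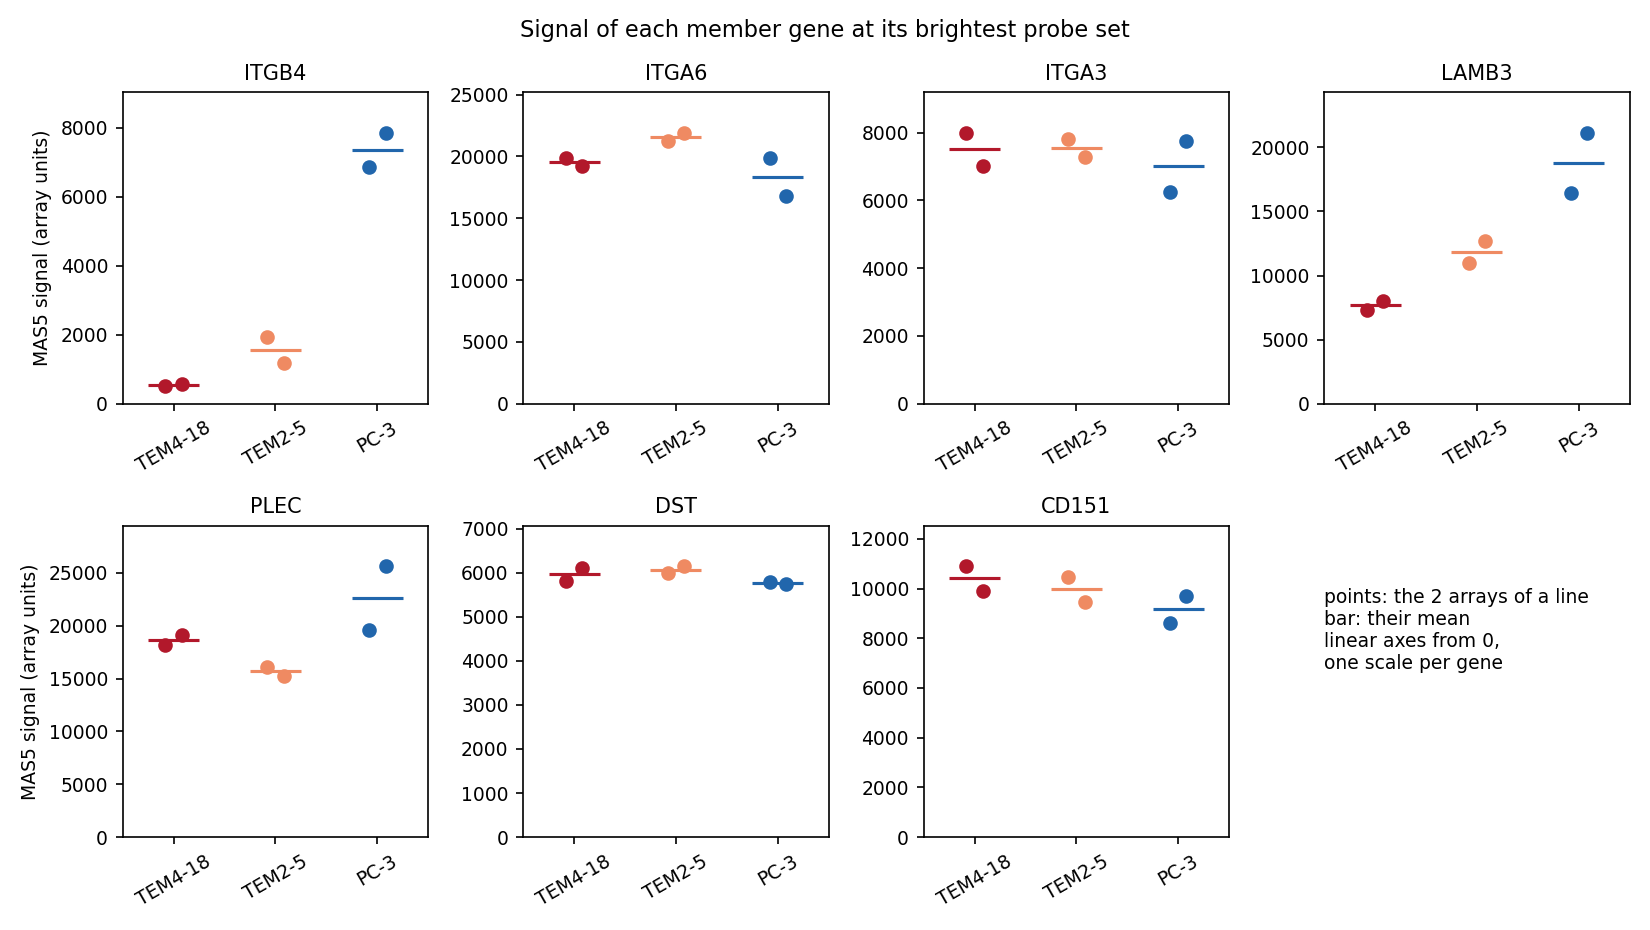
Deposited MAS5 signal (array units, linear axes from 0, a scale of its own for each gene) of the 7 measured genes at the brightest probe set, for TEM4-18, TEM2-5 and PC-3. Points are the 2 arrays of a line and bars their mean; ITGB4 and LAMB3 are lowest in TEM4-18 and highest in PC-3, with no overlap between lines.

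ITGB4 encodes the beta4 subunit of the hemidesmosome integrin alpha6beta4. Its brightest probe set, 204990_s_at, had signals of 522 and 559 in TEM4-18, 1944 and 1188 in TEM2-5, and 6876 and 7859 in PC-3. No array of one line overlapped with another line, and the order was PC-3, then TEM2-5, then TEM4-18. The mean was 540.5 ± 26.7 in TEM4-18, 1566 ± 534 in TEM2-5 and 7368 ± 695 in PC-3 (SD, n = 2 each). The TEM4-18 mean was thus 7.34% of the PC-3 mean, and the TEM2-5 mean was 21.3% of it. The log2 fold change was -3.64 ± 0.20 in TEM4-18 against PC-3 (SE, limma adjusted p = 6.88e-07) and -2.23 ± 0.20 in TEM2-5 against PC-3 (limma adjusted p = 5.45e-05). With TEM4-18 replicate 2 left out, so that each array compared has the stated RNA check, the TEM4-18 value was -3.69.

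The other tested ITGB4 probe sets went the same way by less. Probe set 204989_s_at had signals of 518 and 314 in TEM4-18, 966 and 711 in TEM2-5, and 2840.1 and 2971 in PC-3. Its log2 fold changes were -2.69 ± 0.23 in TEM4-18 (limma adjusted p = 1.33e-05) and -1.75 ± 0.23 in TEM2-5 (limma adjusted p = 0.000561). Probe set 211905_s_at had 334 and 278 in TEM4-18, 496 and 395 in TEM2-5, and 1045 and 1197 in PC-3, with log2 fold changes of -1.71 ± 0.22 (limma adjusted p = 0.00027) and -1.24 ± 0.22 (limma adjusted p = 0.00383). All 3 kept the order of the lines. The names of all 3 end in _s_at, which marks probes that can match several transcripts. The remaining ITGB4 probe sets were dim and were not tested. Probe set 230704_s_at did not follow the order of the others, with 114 and 130.1 in TEM4-18, 254 and 226 in TEM2-5, and 85.9 and 55.9 in PC-3. With no filter it did not pass the test in either line (log2 fold change 1.26 ± 0.40 in TEM2-5, limma adjusted p = 0.111). Probe set 214292_at ranged from 33.0 to 206 over the 6 arrays.

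**Figure D2:**
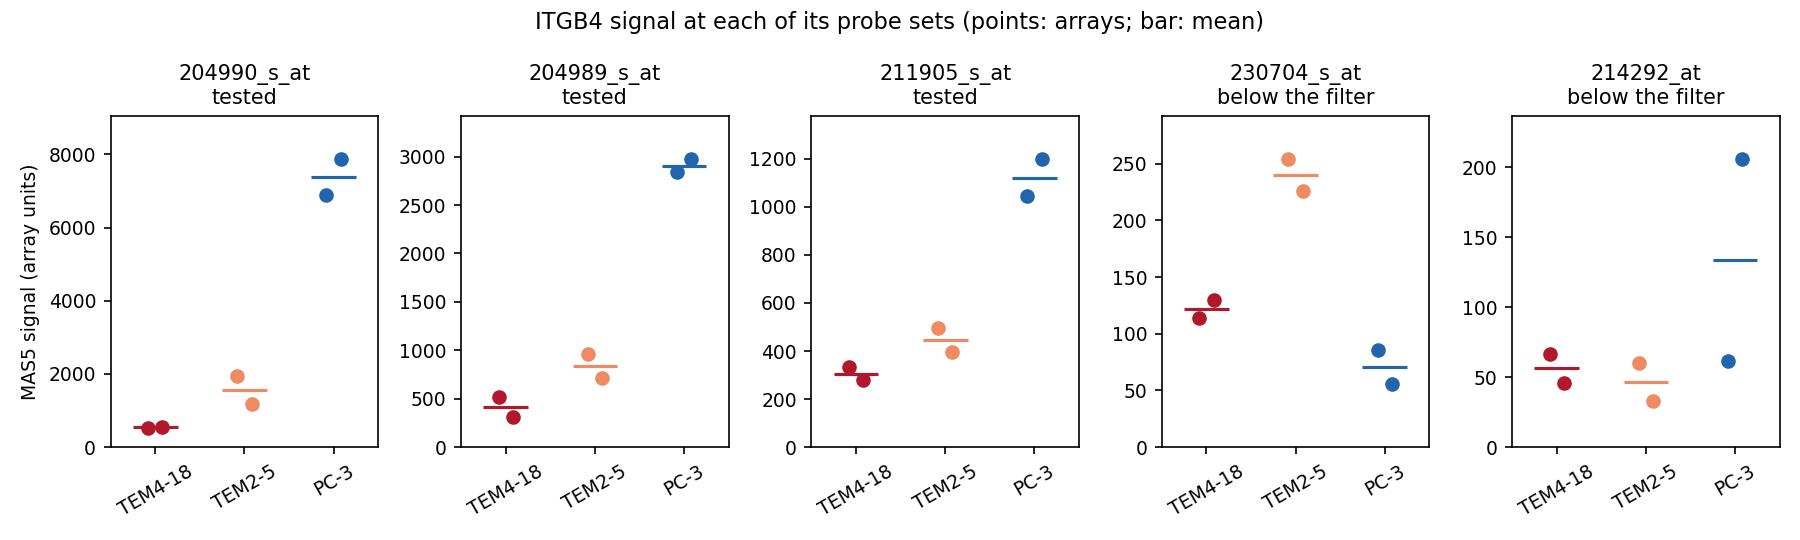
MAS5 signal (array units, linear axes from 0, a scale of its own for each probe set) at the 5 probe sets of ITGB4 in TEM4-18, TEM2-5 and PC-3. Points are arrays and bars means; the 3 tested probe sets share the order TEM4-18, TEM2-5, PC-3 from low to high, and the 2 dim ones do not.

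ITGA6, the partner of ITGB4 and also of ITGB1, was not lower at either of its probe sets. Its brightest probe set, 201656_at, had signals of 19908 and 19233 in TEM4-18, 21286 and 21927 in TEM2-5, and 19888 and 16838 in PC-3. The TEM4-18 arrays overlapped with PC-3, and the TEM2-5 arrays lay above both lines. The log2 fold change was 0.10 ± 0.08 in TEM4-18 (95% interval -0.09 to 0.28, limma adjusted p = 0.459) and 0.24 ± 0.08 in TEM2-5 (0.05 to 0.43, limma adjusted p = 0.0833). Averaged over both ITGA6 probe sets the TEM2-5 value passed (0.32, limma adjusted p = 0.0122). At 201656_at the TEM2-5 value was 0.36 without PC-3 replicate 1 and 0.12 without PC-3 replicate 2. The TEM4-18 value there was 0.22 and -0.02, so both depended on which PC-3 array was kept. The second probe set, 215177_s_at, had 9368 and 9329 in TEM4-18, 10376 and 10662 in TEM2-5, and 7819 and 8107 in PC-3. There the lines did not overlap, and the signal rose in TEM2-5 by 0.40 ± 0.08 on the log2 scale (limma adjusted p = 0.00611), while TEM4-18 was at 0.23 ± 0.08 (limma adjusted p = 0.0528). The TEM2-5 call was lost without TEM2-5 replicate 2 (0.38, limma adjusted p = 0.0512) and without the mean-variance trend (limma adjusted p = 0.0847).

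ITGA3, the alpha subunit of the other laminin-332 receptor, had 1 probe set. Its signals were 7999.9 and 7028 in TEM4-18, 7823 and 7292 in TEM2-5, and 6247 and 7767 in PC-3, and the lines overlapped. The log2 fold change was 0.11 ± 0.12 in TEM4-18 (95% interval -0.15 to 0.36, limma adjusted p = 0.566) and 0.12 ± 0.12 in TEM2-5 (-0.14 to 0.37, limma adjusted p = 0.562). ITGB1, the beta subunit that pairs with both alpha chains, had means of 62929.5 ± 3566 in TEM4-18, 66199 ± 3043 in TEM2-5 and 65861.5 ± 888 in PC-3 (SD, n = 2 each). Its log2 fold changes were -0.07 ± 0.06 in TEM4-18 and 0.0067 ± 0.061 in TEM2-5, and neither passed the test (limma adjusted p = 0.478 in TEM4-18 and 0.961 in TEM2-5).

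LAMB3 encodes the beta3 chain of laminin-332, the ligand of both receptors. Its single probe set had signals of 7342 and 8046 in TEM4-18, 10959 and 12668 in TEM2-5, and 16432 and 21151 in PC-3. The lines did not overlap, and the order was that of ITGB4. The mean was 7694 ± 498 in TEM4-18, 11813 ± 1208 in TEM2-5 and 18791 ± 3336 in PC-3 (SD, n = 2 each), so that TEM4-18 had 40.9% and TEM2-5 62.9% of the PC-3 mean. The log2 fold change was -1.27 ± 0.12 in TEM4-18 (limma adjusted p = 3.06e-05) and -0.66 ± 0.12 in TEM2-5 (limma adjusted p = 0.00423). The TEM2-5 call was lost without the mean-variance trend (limma adjusted p = 0.0876).

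PLEC, the plakin that ties the beta4 tail to keratin filaments, was lower in TEM2-5 at both of its probe sets. The brighter one, 216971_s_at, had signals of 18194 and 19100.2 in TEM4-18, 16120.2 and 15264 in TEM2-5, and 19626 and 25638 in PC-3. The PC-3 arrays lay above both TEM lines and were far apart, and TEM2-5 was the lowest line. PLEC fell in TEM2-5, at -0.51 ± 0.11 on the log2 scale (limma adjusted p = 0.00942), and TEM4-18 was at -0.27 ± 0.11 (95% interval -0.51 to -0.02, limma adjusted p = 0.103). The TEM2-5 call was lost without TEM2-5 replicate 2 (-0.48, limma adjusted p = 0.0675) and without the trend (limma adjusted p = 0.127), and the TEM4-18 difference passed without PC-3 replicate 1 (-0.46, limma adjusted p = 0.00543) and was -0.07 without PC-3 replicate 2. The second probe set, 201373_at, was at -0.37 ± 0.13 in TEM4-18 (limma adjusted p = 0.06) and at -0.51 ± 0.13 in TEM2-5 (limma adjusted p = 0.0215). That TEM2-5 call was also lost without PC-3 replicate 2 (-0.31, limma adjusted p = 0.142), without TEM2-5 replicate 2 (-0.40, limma adjusted p = 0.15), with no filter (limma adjusted p = 0.0562) and without the trend (limma adjusted p = 0.157).

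DST encodes several plakin isoforms, and only the epithelial one, BPAG1e, is a hemidesmosome protein. The gene had 10 probe sets, of which 6 were tested and 0 passed in any comparison, with 0 at an unadjusted p under 0.05 in the limma fit. The brightest, 215016_x_at, had signals of 5810 and 6110 in TEM4-18, 5995 and 6148 in TEM2-5, and 5786 and 5737 in PC-3. Both TEM lines lay slightly above PC-3 and overlapped with each other. Its log2 fold change was 0.05 ± 0.09 in TEM4-18 (95% interval -0.15 to 0.24, limma adjusted p = 0.745) and 0.07 ± 0.09 in TEM2-5 (-0.12 to 0.27, limma adjusted p = 0.627). The brightest DST probe set without _s or _x in its name, 232098_at, had the opposite sign and wider intervals. It was at -0.22 ± 0.25 in TEM4-18 (95% interval -0.78 to 0.34, limma adjusted p = 0.581). In TEM2-5 it was at -0.03 ± 0.25 (-0.59 to 0.54, limma adjusted p = 0.966). The probe set 204455_at, which the annotation ties to a RefSeq transcript of the epithelial isoform, was dim. It had 253 and 285 in TEM4-18, 361 and 288 in TEM2-5, and 355 and 540 in PC-3. TEM4-18 lay below PC-3 and TEM2-5 overlapped with it. The log2 fold change was -0.61 ± 0.30 in TEM4-18 (95% interval -1.28 to 0.06, limma adjusted p = 0.172) and -0.39 ± 0.30 in TEM2-5 (-1.06 to 0.28, limma adjusted p = 0.44), and at this signal the TEM4-18 interval takes in the size of the LAMB3 fall. The 4 untested DST probe sets ranged from 5.92 to 335 over the 6 arrays.

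CD151, the tetraspanin that associates with laminin-binding integrins, had signals of 10902 and 9914 in TEM4-18, 10483 and 9475 in TEM2-5, and 8631 and 9690.2 in PC-3. TEM4-18 lay above PC-3 and TEM2-5 overlapped with it. The log2 fold change was 0.18 ± 0.09 in TEM4-18 (95% interval -0.03 to 0.39, limma adjusted p = 0.191) and 0.12 ± 0.09 in TEM2-5 (-0.09 to 0.33, limma adjusted p = 0.434).

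In TEM4-18 against PC-3, 4 of the 16 tested member probe sets passed, all lower, and they belong to ITGB4 and LAMB3. That is 25%, against 25.8% of all tested probe sets that passed in this comparison and 12.9% that passed as lower, so the share called in either direction was near the background. The arrays of the 2 lines did not overlap for 11 of the 16, against 60.8% of all tested probe sets. The median log2 fold change was -0.24 over the member probe sets and -0.0014 over all tested probe sets. In TEM2-5 against PC-3, 6 member probe sets passed as lower and 1 as higher, against 16.4% of all probe sets called, 7.65% as lower and 8.74% as higher. The arrays did not overlap for 10 of the 16, against 57.2% of all. The lower ones belong to ITGB4, LAMB3 and PLEC and the higher one to ITGA6. The median there was 0.016 over the members and 0.0078 over all probe sets. Several probe sets measure 1 gene, and ITGB4 gives 3 of these calls in each comparison. Both comparisons use the same PC-3 arrays. The member count in TEM2-5 was 4 without TEM2-5 replicate 2 and 3 without the trend.

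**Figure D3:**
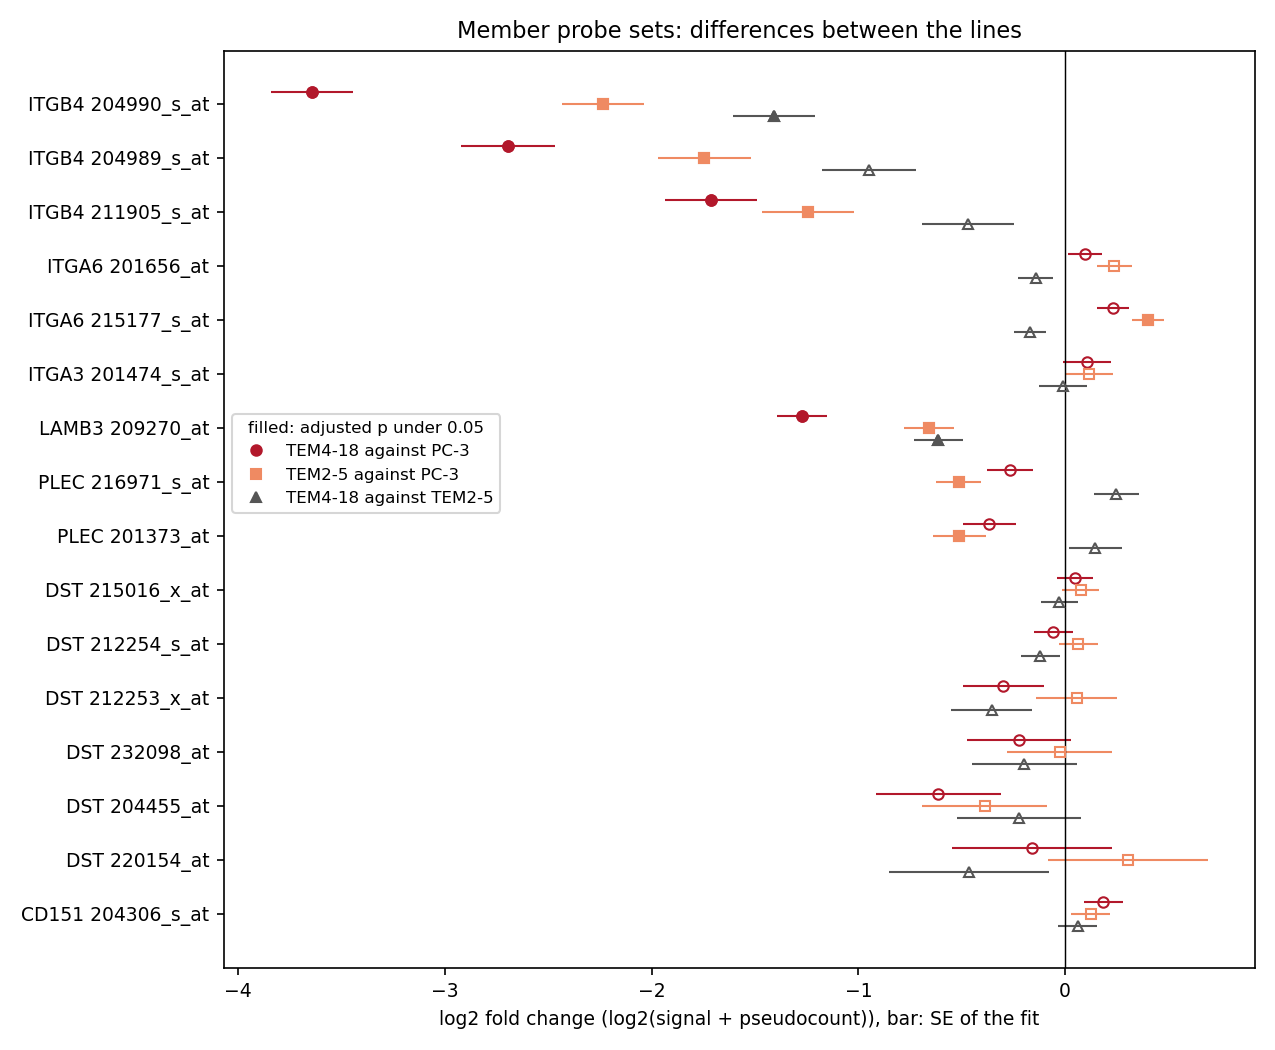
Log2 fold change (log2(signal + 51.8) scale, bars are SE of the fit) of the 16 tested member probe sets in TEM4-18 against PC-3 (circles), TEM2-5 against PC-3 (squares) and TEM4-18 against TEM2-5 (triangles). Filled symbols passed the test; those far to the left are ITGB4 and LAMB3, and DST, ITGA3 and CD151 have no filled symbol.

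The third comparison set TEM4-18 against TEM2-5, to ask whether the isolates of the separate experiments differ. ITGB4 at 204990_s_at was lower in TEM4-18, with 34.5% of the TEM2-5 mean and a log2 fold change of -1.41 ± 0.20 (limma adjusted p = 0.00475). LAMB3 was lower too, with 65.1% of the TEM2-5 mean and -0.61 ± 0.12 (limma adjusted p = 0.0319). These were 2 of 16 member probe sets, against 1.8% of all tested probe sets called and 1.44% called as lower. Of genes at the brightest probe set, 2.77% passed and 2.27% were lower. The arrays of the lines did not overlap for 11 of the 16, against 43% of all tested probe sets. The other ITGB4 probe sets were at -0.95 ± 0.23 (204989_s_at, limma adjusted p = 0.0717) and -0.47 ± 0.22 (211905_s_at, limma adjusted p = 0.431). The LAMB3 call was lost when any 1 of the 4 arrays of these lines was left out (limma adjusted p of 0.0734 to 0.217), and with no filter (limma adjusted p = 0.104). Without the trend both calls were lost, for ITGB4 at a limma adjusted p of 0.164 and for LAMB3 at 0.327, and 0 member probe sets passed limma, with 4 at an unadjusted p under 0.05. With no filter 1 member passed, and without TEM4-18 replicate 2 or either TEM2-5 array 1 passed. PLEC had the opposite sign, at 0.25 ± 0.11 (95% interval 0.01 to 0.49, limma adjusted p = 0.383).

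The profiles of the measured genes over the 6 arrays were compared with that of ITGB4 by Pearson's r of log2 signals, as a description, since the arrays share 3 lines. LAMB3 had r = 0.95, PLEC 0.57, ITGA3 -0.33, ITGA6 -0.45, DST -0.60 and CD151 -0.65. A high r was common: 1467 of 13555 genes were above 0.9, and LAMB3 was in place 711. The 5 genes most like ITGB4 were GAL, which encodes the neuropeptide galanin, at r = 0.999, GPCPD1 at 0.998, ELF3, an epithelial ETS transcription factor, at 0.997, DLST at 0.997 and CINP at 0.997. GAL had a mean signal of 128 in TEM4-18, 454 in TEM2-5 and 3117 in PC-3, and ELF3 had 402 in TEM4-18, 817 in TEM2-5 and 2380.4 in PC-3.

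Related genes were taken from lists and counted at the brightest probe set of each gene. Over all 13556 tested genes, 29.4% passed in TEM4-18, 13.3% as higher and 16.1% as lower, and 19.2% in TEM2-5, 9.04% as higher and 10.1% as lower. The member genes had 0 higher and 2 lower of 7 in TEM4-18, and 0 higher and 3 lower in TEM2-5. Of 7 other laminin chains tested, 0 passed in either line under the limma fit. At an unadjusted p under 0.05 there was 1, higher, in TEM4-18 and 0 in TEM2-5. LAMC1, the gamma1 chain, was at 0.29 ± 0.11 in TEM4-18 (limma adjusted p = 0.066), LAMB1 at 0.05 ± 0.09 and LAMA5 at -0.10 ± 0.22.

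Of 11 other integrin subunits tested, 2 rose and 3 fell in TEM4-18, and 2 rose and 2 fell in TEM2-5. ITGB8, which pairs with ITGAV, had means of 544 in TEM4-18, 2136 in TEM2-5 and 5840.1 in PC-3, and fell on the log2 scale, at -3.30 ± 0.15 in TEM4-18 and -1.42 ± 0.15 in TEM2-5. ITGAV fell, at -1.05 ± 0.09 in TEM4-18 and -0.64 ± 0.09 in TEM2-5. ITGA1, a collagen-binding subunit, rose by 1.79 ± 0.24 in TEM4-18 and by 1.46 ± 0.24 in TEM2-5, and the fibronectin receptor subunit ITGA5 rose by 0.65 ± 0.13 in TEM4-18 and by 0.55 ± 0.13 in TEM2-5. The median log2 fold change over the 11 was -0.07 in TEM4-18 and -0.09 in TEM2-5, against -0.04 and -0.02 over all tested genes.

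Of 18 tetraspanins tested beside CD151, 1 rose and 4 fell in TEM4-18, and 2 rose and 4 fell in TEM2-5. TSPAN1 had signals of 715 and 90.03 in TEM4-18, 1328 and 1258 in TEM2-5, and 4588 and 4949.9 in PC-3. The TEM4-18 arrays were far apart, and the log2 fold change was -3.87 ± 0.55 in TEM4-18 and -1.84 ± 0.55 in TEM2-5. TSPAN13 was at -1.68 ± 0.15 in TEM4-18 and at -0.48 ± 0.15 in TEM2-5, where it did not pass (limma adjusted p = 0.0562). TSPAN12 fell, at -1.49 ± 0.21 in TEM4-18 and -0.75 ± 0.21 in TEM2-5, and TSPAN4 rose by 0.68 ± 0.10 in TEM4-18 and by 0.42 ± 0.10 in TEM2-5.

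Of 5 other plakins tested, 3 fell and 1 rose in each TEM line, with a median log2 fold change of -2.15 in TEM4-18 and -1.21 in TEM2-5. EPPK1, epiplakin, had signals of 8.61 and 50.7 in TEM4-18, 810.4 and 748 in TEM2-5, and 5568 and 5735 in PC-3. Its log2 fold change was -6.18 ± 0.25 in TEM4-18 and -2.78 ± 0.25 in TEM2-5. The desmosomal plakin DSP, which ties keratins to cell-cell junctions, fell, at -2.51 ± 0.09 in TEM4-18 and -1.21 ± 0.09 in TEM2-5. Periplakin, PPL, fell, at -2.15 ± 0.21 in TEM4-18 and -1.47 ± 0.21 in TEM2-5. MACF1, which links actin and microtubules, rose by 0.34 ± 0.09 in TEM4-18 and by 0.36 ± 0.09 in TEM2-5.

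Of 15 tested genes of the basement membrane and its anchors, 3 rose and 4 fell in TEM4-18, and 1 rose and 1 fell in TEM2-5. COL4A6, a collagen IV chain of some epithelial basement membranes, had means of 437 in TEM4-18, 968 in TEM2-5 and 1591 in PC-3 and fell, at -1.76 ± 0.17 in TEM4-18 and -0.69 ± 0.17 in TEM2-5. The heparan sulfate proteoglycans HSPG2, perlecan, and SDC1, syndecan-1, fell in TEM4-18, at -0.99 ± 0.17 and -0.68 ± 0.14, and in TEM2-5 were at -0.14 ± 0.17 and -0.06 ± 0.14 and did not pass. NTN4, a laminin-related netrin, rose by 0.60 ± 0.12 in TEM4-18 and was at 0.30 ± 0.12 in TEM2-5. ERBIN, which binds the beta4 tail, was at -0.35 ± 0.12 in TEM4-18 (limma adjusted p = 0.0487) and at -0.32 ± 0.12 in TEM2-5 (limma adjusted p = 0.0932). COL7A1, the anchoring fibril collagen, did not pass, at 0.72 ± 0.33 in TEM4-18 (limma adjusted p = 0.139) and 0.77 ± 0.33 in TEM2-5 (limma adjusted p = 0.142). The basal keratins KRT5 and KRT14 lay below the filter.

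Of 10 tested proteases that can cut laminin-332 or act near it, 2 passed in each line, both lower. ST14, matriptase, had signals of 49.2 and 119.7 in TEM4-18, 893 and 1275 in TEM2-5, and 6527 and 8716 in PC-3, a log2 fold change of -5.85 ± 0.27 in TEM4-18 and -2.76 ± 0.27 in TEM2-5. Its TEM4-18 signals lay below the filter level. PLAU, urokinase, fell, at -0.63 ± 0.08 in TEM4-18 and -0.49 ± 0.08 in TEM2-5.

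Of 12 tested signalling partners of integrins, 5 rose and 3 fell in TEM4-18, and 4 rose and 1 fell in TEM2-5. FERMT2, kindlin-2, an activator of beta1 integrins at focal adhesions, had means of 28866 in TEM4-18, 22753 in TEM2-5 and 8188 in PC-3 and rose by 1.81 ± 0.08 in TEM4-18 and by 1.47 ± 0.08 in TEM2-5. The kinase SRC rose by 1.34 ± 0.11 in TEM4-18 and by 0.98 ± 0.11 in TEM2-5, and SHC1, an adaptor that binds phosphorylated beta4, rose by 0.93 ± 0.07 in TEM4-18 and by 0.48 ± 0.07 in TEM2-5. The receptor MST1R, a partner of alpha6beta4 in epithelial cells, fell, at -0.91 ± 0.17 in TEM4-18 and -0.60 ± 0.17 in TEM2-5.

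Of 5 tested transcription factors, 1 rose and 3 fell in TEM4-18, and 2 rose and 3 fell in TEM2-5. ZEB1 had signals of 6866 and 7074 in TEM4-18, 6244 and 6594 in TEM2-5, and 1859 and 1824 in PC-3. It rose by 1.89 ± 0.10 in TEM4-18 and by 1.77 ± 0.10 in TEM2-5, and between the TEM lines it was at 0.12 ± 0.10 (limma adjusted p = 0.699). The epithelial factor GRHL2 fell, at -4.46 ± 0.20 in TEM4-18 and -1.98 ± 0.20 in TEM2-5, KLF5 fell, at -0.90 ± 0.10 in TEM4-18 and -0.47 ± 0.10 in TEM2-5, and KLF4 fell, at -0.89 ± 0.11 in TEM4-18 and -0.39 ± 0.11 in TEM2-5. Between the TEM lines, 2 of the 5 factors passed, both lower in TEM4-18. These were GRHL2, at -2.48 ± 0.20 (limma adjusted p = 0.000102), and KLF4, at -0.50 ± 0.11 (limma adjusted p = 0.0451). KLF5 was at -0.43 ± 0.10 and did not pass (limma adjusted p = 0.0654). A link of any of these factors to ITGB4 or LAMB3 was not tested.

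**Figure D4:**
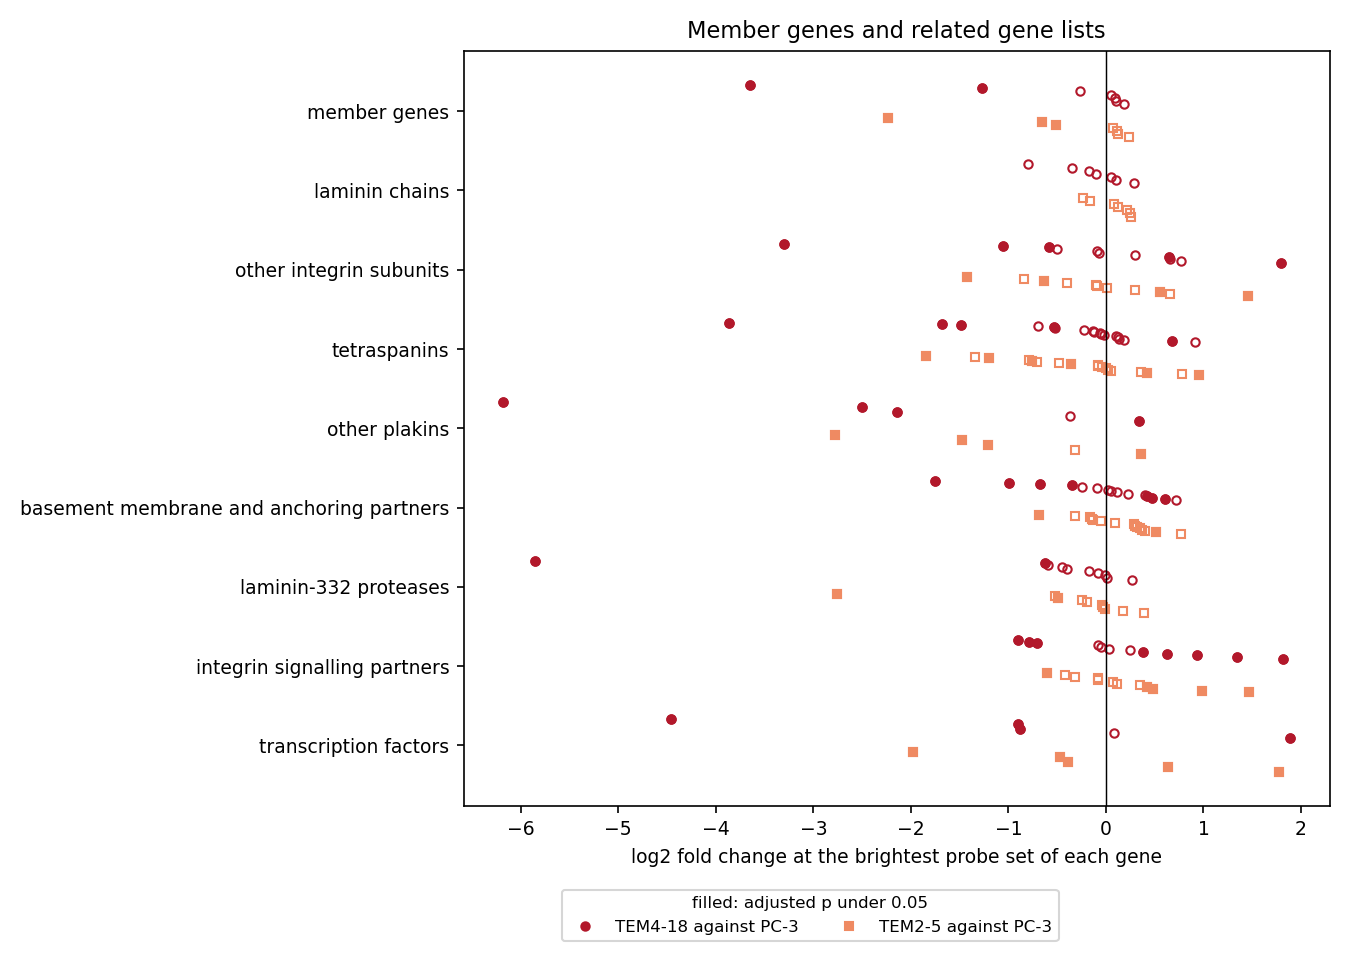
Log2 fold change of each tested gene of the member list and the related lists at its brightest probe set, in TEM4-18 against PC-3 (circles) and TEM2-5 against PC-3 (squares), with filled symbols for adjusted p under 0.05. The laminin chains other than LAMB3 have no filled symbol, and the points far to the left outside the member genes in TEM4-18 are EPPK1, ST14, GRHL2, TSPAN1 and ITGB8.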

How the data were processed

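Signals of 6 arrays were grouped by the sample titles (1 source name numbers an array differently, and its title was followed). The authors deposited linear signal intensities per probe set from MAS5 (version not given in the sources used here, tool per the submitters' processing notes). Values were taken as log2(signal + 51.8). Probe sets with a mean above 178, the 40th percentile of signals, were tested (32518, controls left out). limma 3.58.1 (R 4.3.3) fitted all arrays together with an intensity trend, 3 residual degrees of freedom and Benjamini-Hochberg adjustment over these probe sets. The fit was also run on simulated data with independent arrays. That run does not show error rates where the arrays of a line are technical repeats. The number of arrays limits precision.

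A gene stands for its probe set of highest mean signal, and 41097 probe sets have 1 symbol. Members and lists were chosen with earlier results of these data known. Named beside the members were up to 4 genes a list past the threshold with the largest TEM4-18 differences, with ITGB1, ERBIN, COL7A1 and ZEB1, and the 5 profiles most like ITGB4. The 3 laminin chains, KRT5, KRT14 and the cell type markers named were chosen after their values were seen. Alternatives changed the pseudocount, filter, normalization, trend, arrays fitted, replicate block and probe set. List genes without a probe set of 1 symbol were not analysed here.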

Additional observations from a re-analysis of the deposited data

Results flagged for a closer look

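ITGB4 at its brightest probe set and LAMB3 fell further below PC-3 in TEM4-18 than in TEM2-5, by a test of the difference between these lines in the same limma fit. For ITGB4 the log2 difference of TEM4-18 against TEM2-5 was -1.41 (limma adjusted p = 0.00475), and both TEM4-18 arrays lay below both TEM2-5 arrays. For LAMB3 it was -0.61 (limma adjusted p = 0.0319), with no overlap either. The LAMB3 call was also lost when any 1 of the 4 TEM arrays was left out (limma adjusted p of 0.0734 to 0.217) and with no filter (limma adjusted p = 0.104), and the other ITGB4 probe sets tested did not pass (limma adjusted p = 0.0717 and 0.431). Both calls were lost without the mean-variance trend (limma adjusted p = 0.164 for ITGB4 and 0.327 for LAMB3).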

How the results depend on the processing

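The fall of ITGB4 in each TEM line against PC-3 kept its direction and its call under all alternatives run, at all 3 tested probe sets, and LAMB3 kept its call in TEM4-18. Of 411 member values recomputed, 392 kept their side of the threshold, 16 lost the call and 3 gained it. The 392 include values that were called in neither form. They also include repeats of the reported value, as for LAMB3 and ITGA6, whose main probe set has no _s or _x. Another sign was found for 11 values, none of them called in either form. Without the mean-variance trend, 5404 probe sets were called in TEM4-18 and 2353 in TEM2-5 against PC-3, 127 between the TEM lines, and 3 member probe sets in TEM2-5 and 0 between the TEM lines by limma (4 at an unadjusted p under 0.05). With no filter, 300 probe sets and 1 member probe set were called between the TEM lines. Leaving out 1 array gave 5974 to 7761 probe sets and 4 to 6 members in TEM4-18, 2842 to 5136 and 4 to 8 in TEM2-5, and 220.0 to 553 and 1 to 2 between the TEM lines; such a fit assumes that the lone array varies like the others. In TEM2-5 against PC-3 the count was lowest when a TEM2-5 array was left out (2842 and 2988) and 3329 when PC-3 replicate 2 was. Between the TEM lines it was 319 without TEM4-18 replicate 2, and 220.0 or 269 with one of the TEM2-5 arrays left out. Arrays with the same replicate number deviated together only weakly (correlations of 0.065, 0.083 and 0.097), which does not show whether the numbers pair the arrays. The median signal of replicate 1 was 296 in TEM4-18, 310 in TEM2-5 and 317 in PC-3. That of replicate 2 was 267, 281 and 282. With the replicate number as a block, 5, 7 and 3 member probe sets were called in the 3 comparisons. Of all probe sets, 9441, 6433 and 871 were called with the block, against 8390, 5331 and 584 without it. Dim probe sets, among them that of epithelial DST, have wide errors.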
